A study of Mus musculus with 2 samples.

Results

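The gasdermin C genes of the mouse, Gsdmc, Gsdmc2, Gsdmc3 and Gsdmc4, lie side by side on chromosome 15 and were followed through the nuclei of the inflamed colon. They were taken by their exact symbols, 4 of the 32285 genes counted, and were chosen by their measured levels, since they had stood out as leading genes of one group of enterocytes in these same nuclei. Their distribution over enterocyte groups is therefore given as a description with no test. Nuclei of frozen colon were profiled by droplet-based single-nucleus RNA sequencing in 2 libraries. One came from WT littermates and the other from mice of the genotype Ncr1cre+ Hif-1α fl+/fl+, here HIF-1α KO, each a pool of tissue from 3 mice aged 8 to 12 weeks at the start. All mice had chronic colitis induced by 4 cycles of 2% dextran sodium sulfate (DSS) for 3 days and 4 days of recovery, and were analysed on day 28. Cre is driven by the promoter of Ncr1, the gene of the receptor NKp46, so that HIF-1α is deleted in NKp46+ NK cells and innate lymphoid cells and not, by design, in epithelium.

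Gasdermins are cytosolic proteins with a pore-forming N-terminal part held in check by the C-terminal part. Once a protease cuts between these parts, the N-terminal fragment inserts into membranes, and the cell can lyse or release its contents. Gsdmd is cut by inflammatory caspases, and gasdermin C has been described as a substrate of caspase-8. In the mouse intestine, Gsdmc2, Gsdmc3 and Gsdmc4 are known as epithelial genes that the type 2 cytokines IL-4 and IL-13 induce through STAT6 during worm infection.

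On GRCm38 all 4 genes are read from the minus strand. Gsdmc (ENSMUSG00000079025) spans chr15:63775968-63808759, Gsdmc2 (ENSMUSG00000056293) chr15:63824346-63845177, Gsdmc3 (ENSMUSG00000055827) chr15:63857724-63878558 and Gsdmc4 (ENSMUSG00000055748) chr15:63891264-63912297. The 3 latter genes are close copies. In GENCODE M21 the coding sequences of Gsdmc2 and Gsdmc3 were 97.1% identical over 1443 bases, with 42 differences, and each was 93.8% identical to Gsdmc4 over 1437 aligned bases. Gsdmc was more distant, with 87.0% to 87.5% identity to the other members. Of windows of 90 bases along the transcript, 31.7% of those of Gsdmc2, 33.2% of those of Gsdmc3, 23.2% of those of Gsdmc4 and 8.72% of those of Gsdmc also occurred in another member. Within the last 500 bases, where a 3′-end library places most of its exonic reads, the shares were 18.5% for Gsdmc2, 18.7% for Gsdmc3, 0% for Gsdmc4 and 10.5% for Gsdmc. A read from such a window cannot be placed in 1 member. The split of UMIs between Gsdmc2 and Gsdmc3 is thus less certain than that between either and Gsdmc4, and the sum over the family is given beside the members.

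The coding stretch of 60 bases in which the 3 copies differ most within 1 exon is shown as an example of how close the copies are even where they differ most. It lies upstream of the last 500 bases, at coding bases 819 to 878 of Gsdmc2 and Gsdmc3 and 825 to 884 of Gsdmc4, in exon 11 of Gsdmc2 (chr15:63826868-63826927), exon 9 of Gsdmc3 (chr15:63860298-63860357) and exon 9 of Gsdmc4 (chr15:63893815-63893874), and is written along the transcript, 5′ to 3′, with the 15 positions that are not the same in all copies in capitals.
Gsdmc2: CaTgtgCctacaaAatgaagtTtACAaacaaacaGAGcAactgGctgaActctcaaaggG
Gsdmc3: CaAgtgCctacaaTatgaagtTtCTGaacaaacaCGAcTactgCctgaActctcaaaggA
Gsdmc4: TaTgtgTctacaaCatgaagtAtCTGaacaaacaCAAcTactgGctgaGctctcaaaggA
Over the whole alignment, 113 of 1437 columns without a gap differed, or 7.86%, and the longest run shared by all 3 copies was 171 bases.

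A RefSeq promoter window was at hand for 1 of the 4 members, Gsdmc3 (GRCm38.p6, chr15:63878509-63878808, minus strand, 250 bases before and 50 after the start). It is shown because the members of the cluster vary together between nuclei, as described below. The capitals mark the TATATAA box, which starts 29 bases before the transcript.
Gsdmc3 promoter: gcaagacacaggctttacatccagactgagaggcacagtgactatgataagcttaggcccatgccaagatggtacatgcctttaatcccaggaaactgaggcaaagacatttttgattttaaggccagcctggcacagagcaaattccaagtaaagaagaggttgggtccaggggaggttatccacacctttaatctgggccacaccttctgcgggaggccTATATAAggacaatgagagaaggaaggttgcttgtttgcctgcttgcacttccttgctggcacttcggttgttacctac
TATATAA was searched after the sequence had been read and occurs, on either strand, in 3.24% of 32851 promoter windows of this length. TTC and GAA separated by any 4 bases (STAT6 type, in 6.95% of all windows), ACGTG (HIF type, in 19.6%) and TTTATG (Cdx type, in 11.9%) were not found on either strand of this window.

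The libraries differed in depth before any comparison. The WT library held 4896 barcodes with 13492810 UMIs (unique molecular identifiers, which count captured RNA molecules), and the HIF-1α KO library 4772 barcodes with 25489277 UMIs. After the filter on nuclei, 4884 WT and 4702 HIF-1α KO nuclei remained, with medians of 2058.5 and 4197 UMIs, and 3 barcodes occurred in both libraries. Levels are given as UMIs per 1000000 UMIs of the same nuclei (CPM) with exact 95% Poisson intervals, which cover counting error only. With 1 pooled library per genotype there is no replicate check of any difference between WT and HIF-1α KO, and no test was made. Hif1a itself had 172 CPM (165 to 179) in WT and 199 CPM (193 to 205) in HIF-1α KO, and Ncr1, which marks the cells that carry the deletion, had 1 and 0 UMIs, so that these counts cannot check the labels.

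Of the 4 members, Gsdmc was close to silent and the 3 copies were expressed. Gsdmc had 1 UMI in each library, 0.0754 CPM in WT and 0.0424 CPM in HIF-1α KO, below the floor of 3 UMIs set here. Gsdmc2 had 1194 UMIs or 90.05 CPM (85.0 to 95.3) in WT and 3024 UMIs or 128 CPM (124 to 133) in HIF-1α KO. Gsdmc3 was the least abundant of the 3, with 455 UMIs or 34.3 CPM (31.2 to 37.6) in WT and 1305 UMIs or 55.3 CPM (52.3 to 58.4) in HIF-1α KO. Gsdmc4 had 1215 UMIs or 91.6 CPM (86.6 to 96.9) in WT and 3387 UMIs or 143 CPM (139 to 148) in HIF-1α KO. The gene spans of the 3 copies are nearly the same, at 20.8 kb for Gsdmc2 and Gsdmc3 and 21.03 kb for Gsdmc4. Per kb of span, the level in enterocyte-like nuclei of the WT library was 7.13 CPM for Gsdmc2, 2.79 for Gsdmc3 and 7.24 for Gsdmc4. In HIF-1α KO the level per kb was 9.43 CPM for Gsdmc2, 4.12 for Gsdmc3 and 10.3 for Gsdmc4, so that Gsdmc3 was lowest on this scale too. Gsdmc2 and Gsdmc4 had overlapping intervals in WT and not in HIF-1α KO.

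Cell types were told by markers other than the Gsdmc genes, and the clustering did not use these genes. Of the 23 clusters, 5 were epithelial and neither secretory, stem-like nor cycling, and these are called enterocyte-like here. Epithelial is a relative call. The mean log2 ratio of the epithelial markers over all other nuclei was -0.115 in cluster 0 and -0.0095 in cluster 1. In both it was above the score of every non-epithelial class. In cluster 2, described below, it was -0.0018, but the immune markers scored 0.51. Cluster 0 was crypt enterocyte-like, led by Htr4 (a serotonin receptor) and with Cftr, the chloride channel of crypt cells. Clusters 5 and 6 were absorptive colonocyte-like, led by genes such as Slc9a3 and Slc26a3 (sodium and chloride uptake) in cluster 5 and Clca4a, Car4 and Aqp8 in cluster 6. Cluster 1 had both genes at a similar level, with 1067 CPM of Cftr and 1193 CPM of Htr4 over both libraries against 1050.1 and 1315 CPM in cluster 0. Clusters 1 and 11 stayed unnamed, because too few markers of any enterocyte class passed in them, and are called by their leading genes. These were Gsdmc3, Zan, Cyp2c68, Grin2b, Gsdmc2 and Hao2 in cluster 1 and Hao2, Gsdmc2, Selenbp1, Cyp2c68, Gsdmc4 and Gsdmc3 in cluster 11. A further unnamed cluster, cluster 2, was shallow, was led by AY036118, Gpx2 and Rps9 and met the criteria of no class. It held 742 WT nuclei (15.2% of the library) and 164 HIF-1α KO nuclei (3.49%). The enterocyte-like nuclei were 1805 in WT and 2214 in HIF-1α KO.

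The Gsdmc genes were highest in clusters 11 and 1. Summed over the family, cluster 11 had 741 CPM (672 to 816) in WT and 947 CPM (897 to 998) in HIF-1α KO, and cluster 1 had 566 CPM (527 to 607) and 743 CPM (713 to 775). Cluster 5, the absorptive colonocyte-like cluster with the lower colonocyte score, followed with 374 CPM (339 to 412) in WT and 502 CPM (476 to 528) in HIF-1α KO. These 3 steps did not overlap in either library. From the next cluster down, every neighbour in the order overlapped in both libraries. Cluster 0 had 159 CPM (138 to 182) in WT and 318 CPM (294 to 343) in HIF-1α KO, cluster 2 had 243 CPM (214 to 274) and 305 CPM (247 to 373), and the surface colonocyte-like cluster 6 had 124 CPM (104 to 147) and 173 CPM (158 to 188). Enterocyte-like nuclei held 41.3% of all UMIs of the WT library and 53.1% of those of HIF-1α KO, but 68.7% and 80.99% of the UMIs of the Gsdmc genes.

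**Figure D1:**
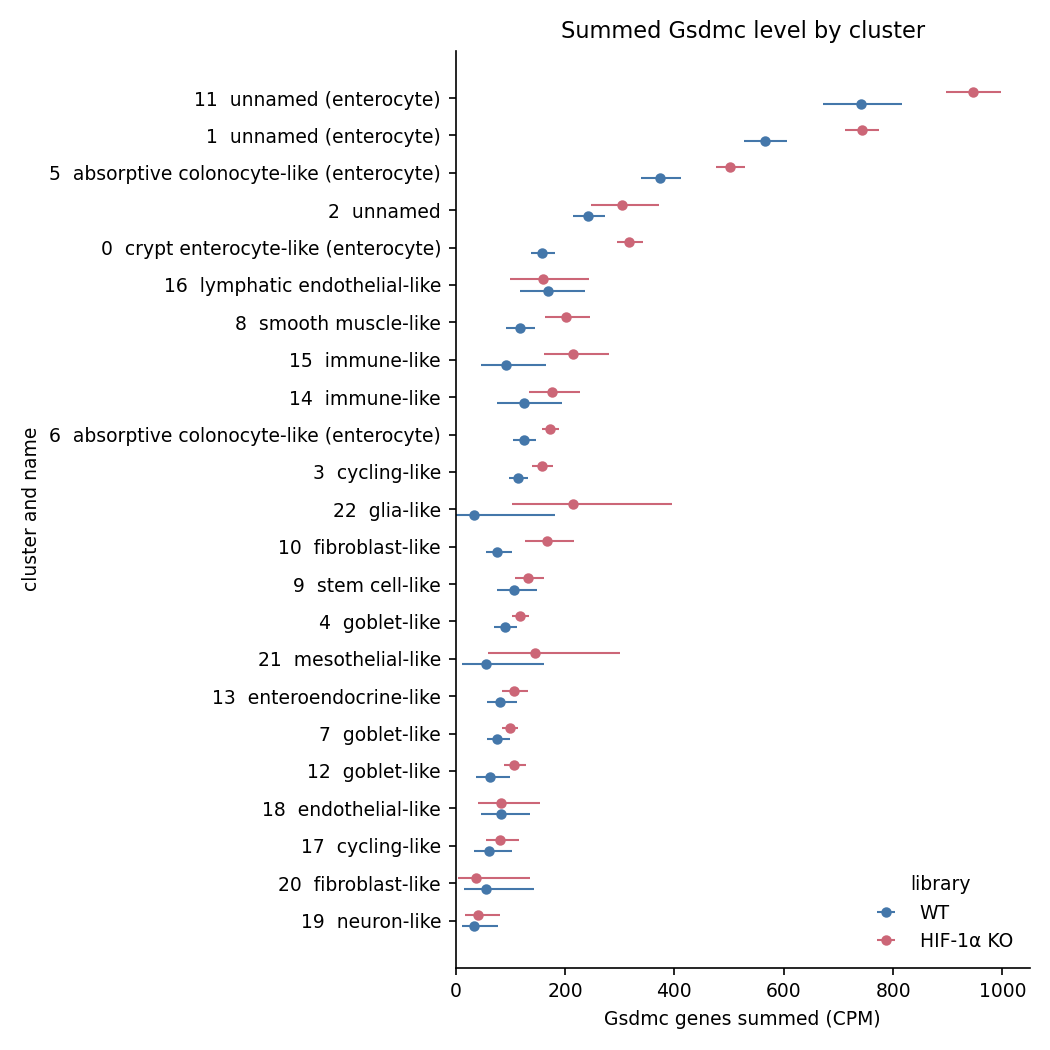
Summed level of the 4 Gsdmc genes in CPM (x axis) in each of the 23 clusters (y axis), as points with exact 95% Poisson intervals for the WT and HIF-1α KO libraries. Clusters 11, 1 and 5 stand above the others in both libraries, with 741, 566 and 374 CPM in WT and 947, 743 and 502 CPM in HIF-1α KO.

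Nuclei that should lack the genes had UMIs of them too. The non-epithelial nuclei (muscle, fibroblast, endothelial, neural, mesothelial and immune-like) had 97.3 CPM of the summed Gsdmc genes in WT, 212 UMIs in 895 nuclei, and 162 CPM in HIF-1α KO, 325 UMIs in 656 nuclei. That is 27.1% and 32.5% of the level of the enterocyte-like nuclei. Other enterocyte genes were found in non-epithelial nuclei too, at shares of the enterocyte level that varied by gene. These were 27.4% and 37.3% for Cyp2c68, 23.0% and 20.0% for Slc26a3 and 32.3% and 26.7% for Hao2. The mix of members in the non-epithelial nuclei, 38.7% Gsdmc2, 15.6% Gsdmc3 and 45.8% Gsdmc4 in WT and 33.2%, 18.8% and 48.0% in HIF-1α KO, lay near that of the enterocyte-like nuclei of the same library (41.4%, 16.2% and 42.5%, and 39.4%, 17.2% and 43.4%). RNA set free during the preparation of nuclei can give such counts, but their source was not tested. Levels at or below 97.3 CPM in WT and 162 CPM in HIF-1α KO are not read as expression here.

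By that measure, the summed Gsdmc genes were not clearly above background in secretory, stem-like or cycling nuclei. Goblet-like nuclei had 80.2 CPM in WT and 108 CPM in HIF-1α KO, enteroendocrine-like nuclei 81.9 and 107 CPM, and stem cell-like nuclei 107 and 133 CPM. Cycling nuclei had 108 CPM in WT and 144 CPM in HIF-1α KO. Stem cell-like and cycling nuclei lay above the goblet-like level in both libraries, and in WT slightly above the non-epithelial level too. The reading for them thus depends on which nuclei are taken as background. The interval of each ratio of the sum to the non-epithelial nuclei included 1 or lay below it. Of the single members, Gsdmc4 in stem cell-like nuclei (1.67-fold, 1.03 to 2.61) and Gsdmc2 in cycling nuclei (1.44-fold, 1.07 to 1.96) lay above 1 in WT, and neither did in HIF-1α KO. Enterocyte-like nuclei had 359 CPM (3.69-fold the non-epithelial level, 3.20 to 4.27) in WT and 499 CPM (3.08-fold, 2.75 to 3.45) in HIF-1α KO. This rests on the assignment by cluster: with each nucleus assigned by its own marker score, the log2 ratio went from 1.88 to 0.48 in WT and from 1.62 to -0.29, the opposite direction, in HIF-1α KO. Clusters 1 and 11 together were 6.34-fold (5.48 to 7.37) above the non-epithelial level in WT and 4.99-fold (4.46 to 5.61) in HIF-1α KO. Cluster 0 was 1.63-fold above it in WT and 1.96-fold in HIF-1α KO. Single non-epithelial clusters varied around that level. In WT the lymphatic endothelial-like cluster 16 had 170 CPM (118 to 236), so that the 159 CPM of cluster 0 were not clearly above background there. In HIF-1α KO the highest were the glia-like cluster 22, with 215 CPM (103 to 395), and the immune-like cluster 15, with 214 CPM (161 to 280). Cluster 0 had 318 CPM (294 to 343) in that library. Cluster 6 was close to it, at 1.28-fold (1.02 to 1.59) and 1.07-fold (0.926 to 1.23).

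The share of nuclei with at least 1 UMI of a Gsdmc gene shows the same order, once depth is set equal. As counted, 42.8% of enterocyte-like nuclei in WT and 68.5% in HIF-1α KO had a UMI, against 16.5% and 32.8% of the non-epithelial nuclei, at median depths of 2366 and 4735 UMIs in the former and 1859 and 2110.5 in the latter. With nuclei thinned to 1000 UMIs, which left out 3 enterocyte-like and 17 non-epithelial nuclei of HIF-1α KO with fewer, the shares were 23.9% and 32.1% of the enterocyte-like and 8.60% and 17.4% of the non-epithelial nuclei. As counted, at median depths of 2906.5 and 5109 UMIs, 33.9% of the nuclei of clusters 1 and 11 in WT and 11.3% in HIF-1α KO had no UMI, while 13.7% and 37.9% had 5 or more. At 1000 UMIs per nucleus, the mean was 0.590 UMIs in WT and 0.780 in HIF-1α KO, and 38.4% and 46.98% of these nuclei had a UMI. As counted, the most that a single enterocyte-like nucleus held was 21 UMIs in WT and 42 in HIF-1α KO. The tenth of the nuclei of clusters 1 and 11 with the most UMIs held 41.0% of their Gsdmc UMIs in WT and 34.0% in HIF-1α KO.

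The members tended to be found in the same nuclei. At 1000 UMIs per nucleus, Gsdmc2 and Gsdmc4 occurred together in 41 WT enterocyte-like nuclei where independent detection would give 23.7, and in 90 HIF-1α KO nuclei where it would give 55.4. Gsdmc2 and Gsdmc3 occurred together 2.20 times as often as independent detection would give in WT and 1.68 times in HIF-1α KO, and Gsdmc3 and Gsdmc4 1.34 and 1.53 times. Within clusters 1 and 11 alone the ratios were smaller, at 1.45 in WT and 1.42 in HIF-1α KO for Gsdmc2 and Gsdmc4 and at 1.35 and 1.34 for Gsdmc2 and Gsdmc3. For Gsdmc3 and Gsdmc4 it was 0.943 in WT (10 nuclei against 10.6) and 1.16 in HIF-1α KO (28 against 24.2). How reads that match more than 1 copy were treated is not given in the sources used here, and its part in these ratios was not tested. Over 40 points (20 clusters with at least 20 nuclei in each library, taken in both libraries), Pearson's r of log2(CPM + 10) was 0.89 between Gsdmc2 and Gsdmc3, 0.84 between Gsdmc2 and Gsdmc4 and 0.82 between Gsdmc3 and Gsdmc4, where points of 1 library share its depth and its free RNA.

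The mix of members was not the same in all enterocyte-like clusters. In cluster 1, Gsdmc4 made up 34.5% (31.2 to 37.9) of the Gsdmc UMIs in WT and 36.1% (34.1 to 38.1) in HIF-1α KO. In cluster 11 its share was 40.6% in WT and 40.3% in HIF-1α KO. In cluster 5 it reached 53.1% (48.2 to 57.9) and 54.4% (51.8 to 57.0), and in cluster 6 it was 56.9% (48.2 to 65.4) and 61.8% (57.5 to 66.0). In cluster 6, where the sum was close to the non-epithelial level, Gsdmc4 alone lay above that level, at 1.59-fold (1.17 to 2.17) in WT and 1.37-fold (1.13 to 1.67) in HIF-1α KO, and Gsdmc3 was at 0.780-fold and 0.583-fold. Gsdmc4 was the main member in cluster 5 of both libraries, while Gsdmc2 led in cluster 1, with 44.5% and 41.4%. Gsdmc3 went the other way. It made up 21.03% (18.2 to 24.1) and 22.6% (20.9 to 24.4) of the Gsdmc UMIs in cluster 1 but 8.53% (6.05 to 11.6) and 9.82% (8.34 to 11.5) in cluster 5. As levels, Gsdmc4 was 195 and 199 CPM in clusters 1 and 5 of the WT library, whereas Gsdmc3 was 119 and 31.9 CPM. In cluster 0 Gsdmc4 made up 44.9% (38.0 to 52.0) in WT and 36.0% (32.4 to 39.7) in HIF-1α KO, with overlapping intervals.

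**Figure D2:**
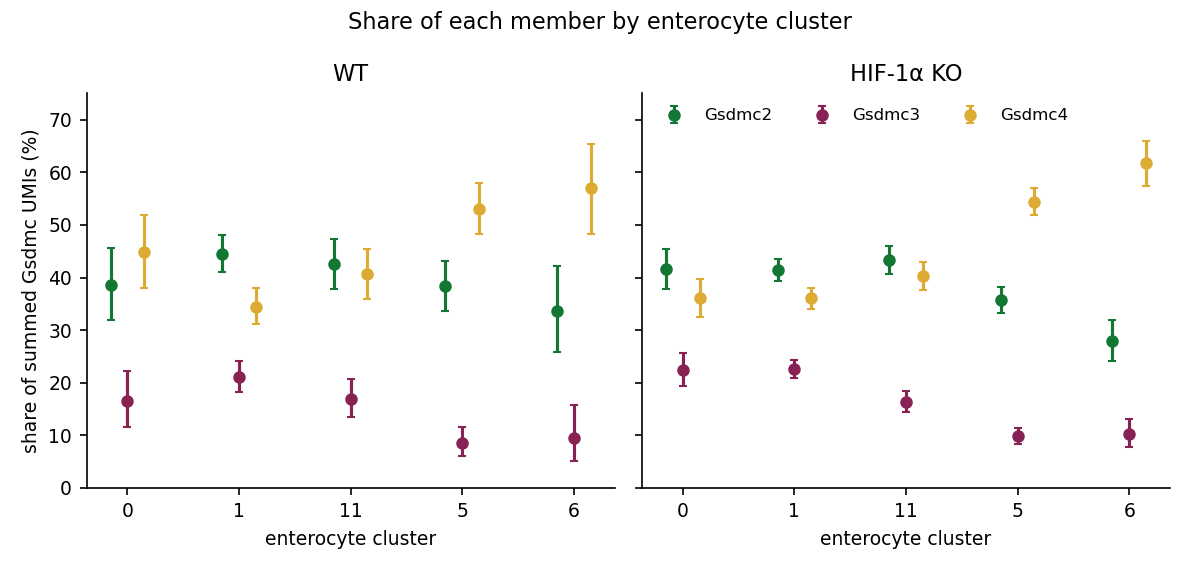
Share of Gsdmc2, Gsdmc3 and Gsdmc4 in the UMIs of the Gsdmc genes in percent (y axis) in the 5 enterocyte-like clusters (x axis), by library, with exact 95% binomial intervals. The share of Gsdmc4 goes from 34.5% and 36.1% in cluster 1 to 56.9% and 61.8% in cluster 6, and that of Gsdmc3 from 21.03% and 22.6% to 9.49% and 10.3%, where the summed level of cluster 6 is 1.28-fold and 1.07-fold that of non-epithelial nuclei.

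Placed along a score from crypt base to surface, the Gsdmc genes peaked below the surface. Enterocyte-like, stem-like and cycling nuclei of each library were cut into 5 bins of equal size by the level of absorptive colonocyte markers minus that of stem cell and cycling markers, so that a bin is a range of the score and not a cell type. In WT the summed level was 105, 247, 398, 473 and 249 CPM from bin 1 at the stem end to bin 5 at the surface end. In HIF-1α KO it was 206, 469, 609, 712 and 208 CPM. Within each library bin 4 was highest, and bin 5 was back at the level of bin 2 in WT and of bin 1 in HIF-1α KO. Bins of the same number do not match between the libraries, since bin 4 covers scores of 0.41 to 0.82 in WT and 0.78 to 1.35 in HIF-1α KO and holds 28.5% and 11.1% nuclei of cluster 0 and 15.5% and 35.8% of cluster 5. Gsdmc2 had 191 CPM in bin 3 and 187 in bin 4 in WT, and 255 and 280 CPM in HIF-1α KO. Gsdmc3 was highest in bin 4 in WT, at 78.1 CPM, and in bin 3 in HIF-1α KO, at 136 CPM, with overlapping intervals for bins 3 and 4 in WT only. Gsdmc4 was highest in bin 4 in both, with 208 and 332 CPM. In bin 5 it had 131 CPM in WT and 126 CPM in HIF-1α KO, and held 52.7% and 60.3% of the Gsdmc UMIs of that bin. Median depth per nucleus ran from 2044.5 to 3502 UMIs over the bins in WT and from 3720 to 5902 in HIF-1α KO, with the deepest nuclei in bin 5.

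The other gasdermins were read for comparison, by a fixed list of 6 genes. Gsdmd, the executor of inflammasome-driven lysis, had 57.5 CPM (51.3 to 64.2) in WT and 90.5 CPM (85.3 to 96.0) in HIF-1α KO enterocyte-like nuclei. Unlike the Gsdmc genes it was highest at the surface end in both libraries, with 20.4, 23.7, 35.3, 50.9 and 85.9 CPM over the bins in WT and 28.6, 36.3, 46.1, 84.9 and 159 CPM in HIF-1α KO. By cluster, it had 95.4 and 176 CPM in cluster 6 but 45.7 and 37.5 CPM in cluster 1. Gsdme, a further pore-forming member, had 11.7 CPM in WT and 20.3 CPM in HIF-1α KO, against 10.1 and 14.0 CPM in non-epithelial nuclei. Gsdma, Gsdma2, Gsdma3 and Pjvk had at most 6 UMIs in the enterocyte-like nuclei of either library.

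**Figure D3:**
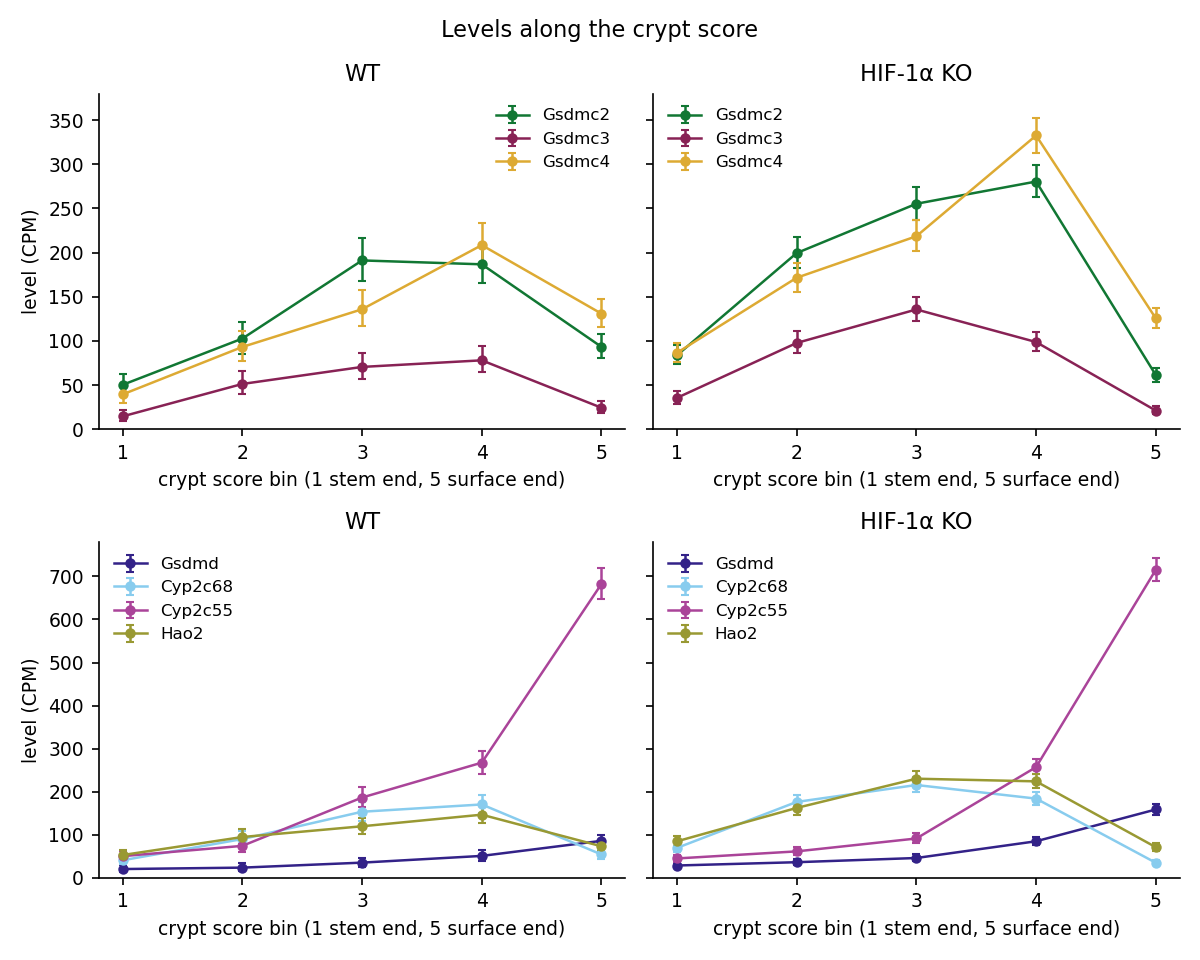
Level in CPM (y axis) over 5 bins of the crypt score (x axis, 1 at the stem end and 5 at the surface end) with exact 95% Poisson intervals, for Gsdmc2, Gsdmc3 and Gsdmc4 (upper row) and Gsdmd, Cyp2c68, Cyp2c55 and Hao2 (lower row) in the WT and HIF-1α KO libraries. Gsdmc2 and Gsdmc4 drop from 187 and 208 CPM in bin 4 to 93.3 and 131 CPM in bin 5 in WT, while Gsdmd and Cyp2c55 are highest in bin 5.

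Among 10968 genes with at least 200 UMIs, those whose level over the 40 cluster points was most like that of the summed Gsdmc genes were Hao2 (Pearson's r 0.93), Lrrc19 (0.90), Selenbp1 (0.88), Hsd3b3 (0.88), Gk (0.87), Setd5 (0.87), Rps6ka3 (0.87), Maoa (0.86), Slc6a14 (0.85) and Tle4 (0.84). Hao2 is a peroxisomal hydroxyacid oxidase, Selenbp1 a methanethiol oxidase of mature colonocytes, Hsd3b3 a steroid dehydrogenase, Gk glycerol kinase, Maoa monoamine oxidase A and Slc6a14 an amino acid transporter. These 10 genes were picked for that likeness in the same nuclei. High levels in clusters 1 and 11 and a peak in similar bins thus follow largely from the choice. The share of all genes that were highest in each bin was not counted. Hao2 had 207 CPM in clusters 1 and 11 of the WT library and 296 CPM in those of HIF-1α KO, against 36.3 and 45.4 CPM in non-epithelial nuclei. Along the crypt score it kept to the middle as the Gsdmc genes did, with 52.9, 94.8, 120, 147 and 73.2 CPM in WT and 84.8, 162, 230, 224 and 71.1 CPM in HIF-1α KO. Of the 10 genes, 6 were highest in bin 4 in WT, while Selenbp1 (177 CPM), Hsd3b3 (234 CPM), Rps6ka3 (539 CPM) and Maoa (494 CPM) were highest in bin 5, at the surface end. In HIF-1α KO, 9 were highest in bin 4 and Hao2 in bin 3. The intervals of bins 4 and 5 overlapped in WT for Selenbp1, Hsd3b3 and Rps6ka3 but not for Maoa. Those of bins 3 and 4 overlapped for Hao2 in HIF-1α KO. Some peaks in bin 4 also overlapped bin 3, as for Lrrc19 and Setd5 in WT.

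Of the colonic Cyp2c genes, which oxidise fatty acids and other small molecules, Cyp2c68 was highest in clusters 11 and 1, as the Gsdmc genes were, and Cyp2c55 was not. Cyp2c68 had 215 and 303 CPM in clusters 1 and 11 of the WT library and 270 and 326 CPM in those of HIF-1α KO, against 20.9 and 25.6 CPM in cluster 6. In cluster 5, the next in order for the Gsdmc genes, it had 76.2 and 81.3 CPM, beside 56.0 and 116 CPM in cluster 0, so that the order of these clusters in HIF-1α KO was the opposite of that of the Gsdmc genes. Its highest bin was bin 4 in WT, with 170 CPM, and bin 3 in HIF-1α KO, with 216 CPM. Cyp2c55 had 856 and 731 CPM in cluster 6 but 110 and 65.7 CPM in cluster 1. Cyp2c65 had 11.3 and 13.6 CPM in enterocyte-like nuclei, and Cyp2c66 and Cyp2c69 at most 13 UMIs. Between the libraries 0 of the 3 tested Cyp2c genes passed 1.5-fold in enterocyte-like nuclei, where 11.9% of all genes were that much higher and 13.9% lower, with log2 ratios of HIF-1α KO over WT of 0.31 for Cyp2c68, -0.21 for Cyp2c55 and 0.26 for Cyp2c65.

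The summed posterior Hox genes, which mark the hind end of the gut, were highest in the surface cluster 6 and did not set clusters 1 and 11 apart from the other enterocyte-like clusters. Clusters 1 and 11 had 66.7 and 84.5 CPM in WT and 70.3 and 68.6 CPM in HIF-1α KO, while cluster 6 had 149 and 122 CPM. Cluster 0 had 78.2 and 75.8 CPM, cluster 5 had 78.9 and 65.1 CPM and the non-epithelial nuclei had 84.0 and 75.8 CPM. Hoxb13, the most abundant with 54.2 and 41.1 CPM in enterocyte-like nuclei, carried most of the difference between clusters 6 and 1, with 108 and 76.2 CPM in cluster 6 against 37.0 and 25.8 CPM in cluster 1. Hoxd13 had the opposite order, with 10.9 and 9.52 CPM in cluster 6 and 16.0 and 18.4 CPM in cluster 1. Of the 4 Hox genes tested there, 0 passed 1.5-fold in either direction, beside 11.9% of all genes higher and 13.9% lower.

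Between the libraries, all 3 expressed members were higher in HIF-1α KO. Over all nuclei the log2 ratio of HIF-1α KO over WT was 0.51 (0.41 to 0.61) for Gsdmc2, 0.69 (0.53 to 0.85) for Gsdmc3 and 0.65 (0.55 to 0.74) for Gsdmc4, and 0.60 (0.54 to 0.66) for the sum. Of the 3, 2 were at least 1.5-fold higher, where 13.3% of the 14393 genes with at least 50 UMIs were at least that much higher and 16.5% that much lower. The median over all these genes was -0.01, and that of the 3 members 0.65. In enterocyte-like nuclei, which made up more of the HIF-1α KO library, the ratios were smaller, at 0.40 (0.29 to 0.52) for Gsdmc2, 0.56 (0.38 to 0.75) for Gsdmc3 and 0.51 (0.40 to 0.62) for Gsdmc4. With clusters made without integration these were 0.12, 0.35 and 0.19, and with each nucleus assigned by its own marker score 0.18, 0.38 and 0.38. The summed level there was 1.39-fold higher, a log2 ratio of 0.48 (0.40 to 0.55), which was 0.19 with clusters made without integration and 0.30 with each nucleus assigned by its own marker score. Here 0 of the 3 members passed 1.5-fold, beside 11.9% of 11720 genes higher and 13.9% lower. Gsdmc2 lay at the 80.96th, Gsdmc4 at the 85.7th and Gsdmc3 at the 87.6th percentile of these genes.

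**Figure D4:**
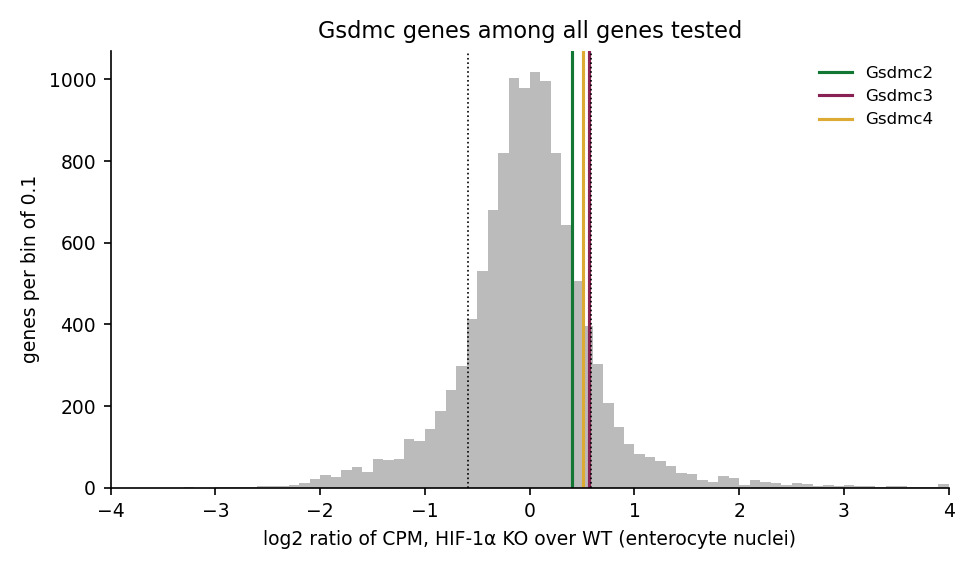
Number of genes (y axis) by log2 ratio of CPM, HIF-1α KO over WT, in enterocyte-like nuclei (x axis, bins of 0.1, values past 4 placed in the outermost bins) for the 11720 genes with at least 50 UMIs, with the 3 expressed Gsdmc genes as coloured lines and 1.5-fold as dotted lines. The members lie at 0.40, 0.51 and 0.56, all inside the dotted line on the side of HIF-1α KO.

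The summed level was higher in HIF-1α KO in each of the 5 enterocyte-like clusters, and most so in cluster 0. There the log2 ratio was 1.00 (0.77 to 1.23), from 159 to 318 CPM, and all 3 members were at least 1.5-fold higher, at 1.11 for Gsdmc2, 1.45 for Gsdmc3 and 0.68 for Gsdmc4, where 16.6% of 7832 genes were that much higher and 8.70% that much lower. The median over these 7832 genes was 0.16. The WT level of cluster 0 was not clearly above background, as given above. Ratios of single clusters were not run under the alternative clusterings. In clusters 1, 11, 5 and 6 the log2 ratio of the sum was 0.39, 0.35, 0.42 and 0.47. The intervals of these 4 clusters overlapped one another and none reached that of cluster 0. The non-epithelial nuclei differed in the same direction, with a log2 ratio of 0.74 (0.48 to 0.99) for the sum, and goblet-like nuclei had 0.43 (0.17 to 0.71). The level in nuclei that should lack the genes thus moved with the level in enterocyte-like nuclei, and its part in the ratio was tested only by subtraction. With the non-epithelial CPM of the same library subtracted, the log2 ratio of the sum in enterocyte-like nuclei was 0.36, and with the lower level of the goblet-like nuclei subtracted instead, it was 0.49. The make-up of the enterocyte-like nuclei also differed, with cluster 0 at 38.4% in WT and 27.8% in HIF-1α KO and cluster 6 at 12.5% and 18.3%. With each cluster weighted equally, the mean log2 ratio was 0.53.

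**Figure D5:**
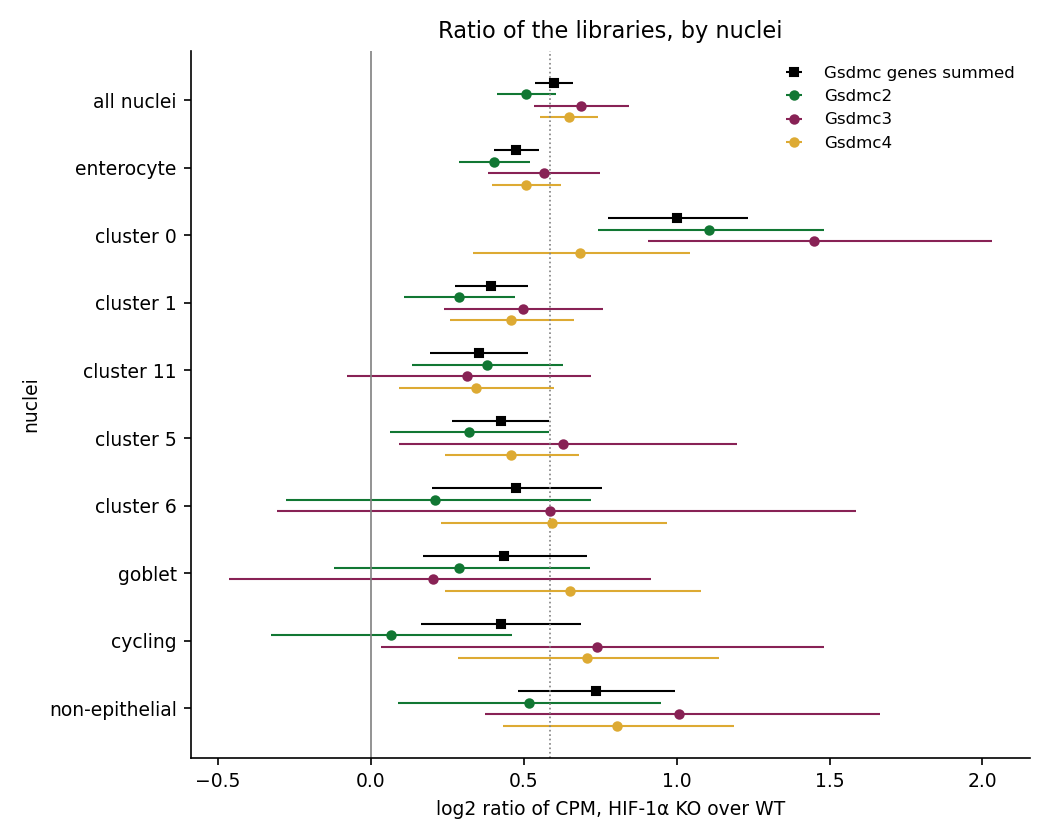
Log2 ratio of CPM, HIF-1α KO over WT (x axis), with exact conditional 95% intervals, for the summed Gsdmc genes and the 3 expressed members in 10 sets of nuclei (y axis), with equality as a solid and 1.5-fold as a dotted line. The sum is above 0 in every set shown, at 0.48 in enterocyte-like nuclei, 1.00 in cluster 0 and 0.74 in non-epithelial nuclei.

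Genes that could cut or follow gasdermins were read from a fixed list. Casp8, the caspase described for gasdermin C, had 239 CPM in WT and 221 CPM in HIF-1α KO (log2 ratio -0.11). It was highest at the surface, with 359 CPM in cluster 6 of both libraries, against 163 and 142 CPM in cluster 1. Of the inflammatory caspases, Casp1 had 25.9 and 49.6 CPM (0.94) and Casp4 95.4 and 139 CPM (0.54), so that Casp1 passed 1.5-fold and Casp4 did not. Casp6 had 8.58 and 8.38 CPM, and Pycard, the inflammasome adaptor, 23.2 and 30.7 CPM (0.40). Gsdmd and Gsdme were both at least 1.5-fold higher in HIF-1α KO, with log2 ratios of 0.66 (0.47 to 0.84) and 0.80 (0.40 to 1.21), as were 11.9% of all genes. Gzma, Gzmb, Elane and Ctsg, proteases of lymphocytes and granulocytes, had at most 2 UMIs in enterocyte-like nuclei, and Ninj1, which ruptures the membrane after gasdermin pores, had 8 and 23.

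Of the type 2 cytokine axis, the ligands were not detectable in enterocyte-like nuclei, and Il4ra was below its level in non-epithelial nuclei and Stat6 close to it. Il4, Il13 and Il25 had 0 UMIs there in WT and in HIF-1α KO, which does not exclude a low level of each gene. Over the non-epithelial nuclei Il4 had 0.918 CPM in WT and 0.499 CPM in HIF-1α KO. Il13ra1, which pairs with Il4ra as the receptor for both cytokines, had 96.2 CPM in WT and 118 CPM in HIF-1α KO, against 83.1 and 100.3 CPM in non-epithelial nuclei. Il4ra had 15.7 and 13.9 CPM, and Stat6 24.5 and 30.1 CPM. In non-epithelial nuclei Il4ra was higher, with 25.2 and 35.4 CPM, and Stat6 had 24.3 and 32.4 CPM. Of 7 genes of the axis with enough UMIs, 0 passed 1.5-fold in enterocyte-like nuclei, where 11.9% of all genes were that much higher and 13.9% lower, so that a count of 0 is near the background. Of 5 tested epithelial targets of type 2 cytokines, 4 were at least 1.5-fold higher in HIF-1α KO and 0 lower, beside 11.9% and 13.9% of all genes. These were the small proline-rich genes Sprr2a1, Sprr2a2 and Sprr2a3, of which Sprr2a3 had 81.9 CPM in WT and 212 CPM in HIF-1α KO (log2 ratio 1.37, 1.22 to 1.52), and the goblet cell gene Clca1, whose 83.6 and 151 CPM lay below its 118 and 229 CPM in non-epithelial nuclei. Sprr2a3 too was higher in the non-epithelial nuclei of HIF-1α KO, with 36.3 and 107 CPM, and it was a surface gene, with 302 and 639 CPM in cluster 6 and 17.4 and 49.9 CPM in cluster 1. How far Sprr2a1, Sprr2a2 and Sprr2a3 share sequence and reads was not tested, so that their calls are not taken as separate. The targets Retnlb, Ang4, Mptx1, Itln1, Ccl26 and Muc5ac had at most 65 UMIs in the enterocyte-like nuclei of a library.

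The expressed genes next to the cluster were not higher in enterocyte-like than in non-epithelial nuclei. Within 500 kb, 10 other genes were counted, and 2 of them were expressed. Fam49b, a regulator of the actin cytoskeleton that lies 16.8 kb from Gsdmc4, had 288 CPM in WT and 252 CPM in HIF-1α KO enterocyte-like nuclei, below its 372 and 548 CPM in non-epithelial nuclei. Asap1, 175 kb away, had 414 and 562 CPM against 486 and 603 CPM. Neither passed 1.5-fold between the libraries in enterocyte-like nuclei, where 11.9% of all genes were that much higher and 13.9% lower, so that this is near the background. The other neighbours had at most 12 UMIs there. The gasdermin C pseudogenes 1700065I16Rik, Gsdmcl1, Gsdmcl2 and Gsdmcl-ps, annotated on the plus strand between or beside the members, were not among the counted genes.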

How the data were processed

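Both libraries were made with droplet-based 3′ chemistry from nuclei of frozen colon. The authors deposited counts of UMIs per gene and nucleus, not normalized, for barcodes kept by the default cell calling of Cell Ranger 7.0.1 on mm10 (GRCm38). Whether intronic reads were counted is not given in the sources used here. Sample-level columns were all mapped to a library by the labels.

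The members, marker lists, gene lists and thresholds were chosen with earlier results of these data known. Nuclei with 400 to 5000 detected genes and at most 10% mitochondrial UMIs were kept, as in the study's methods, and no other doublet removal was made. Nuclei were clustered with Seurat 5.3.0 in R 4.3.3 (2000 variable features without the Gsdmc genes, integration by canonical correlation anchors, 30 components, resolution 1). Each cluster was compared with all other nuclei, as log2 ratios with 10 CPM added, and took the class whose markers averaged highest. At least 3 of these had to reach a log2 ratio of 1 in 10% of its nuclei, and its top 10 genes could not hold more markers of a different class. It counted as epithelial if the epithelial markers scored above every non-epithelial class, a rule set after a first look at the scores. Names depend on these rebuilt clusters and can differ from the study's.

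Summed UMIs were expressed as CPM with exact Poisson intervals, shares with Clopper-Pearson intervals and ratios with exact conditional intervals, all at 95% and for counting error only. No count test was run, since each genotype had 1 library. UMIs of 3 or fewer gave no ratio. Named genes were the 4 members, the lists given, the neighbours within 500 kb, the leading genes of the highest clusters and the 10 genes with the highest Pearson correlation of log2(CPM + 10). Coding sequences came from GENCODE M21 (longest coding transcript of each gene), aligned with Biopython and MAFFT, and the promoter from RefSeq. Some genes of the protease list are not reported here. Protein identity had been planned and was replaced by coding identity. TMM factors came from edgeR 4.0.16. Python 3.11.15 with numpy 2.4.6, pandas 2.3.3 and scipy 1.17.1 was used, and calls and correlations were tested on simulated data. Alternatives changed the filter, depth, scaling, clustering, assignment and background.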

Additional observations from a re-analysis of the deposited data

How the results depend on the processing

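No paired analysis was possible because each genotype had 1 pooled library, so no replicate could be left out either, and depth differed between the libraries. Gsdmc alone gave no ratio, with 1 UMI per library. The summed Gsdmc genes were higher in HIF-1α KO under every alternative run, with log2 ratios of 0.50 to 0.63 over all nuclei (7 alternatives) and 0.19 to 0.56 in enterocyte-like nuclei (16 alternatives, of which equal weight of clusters, cluster 2 added to the enterocytes and subtraction of the goblet level were chosen after seeing the data). Over all nuclei the ratio moved to 0.50 without mitochondrial genes and the top 20 genes. In enterocyte-like nuclei it moved to 0.19 without integration, 0.30 with each nucleus assigned by its own marker score, 0.34 with all barcodes, 0.35 and 0.36 at resolutions 0.5 and 2, 0.37 with the Gsdmc genes among the clustering features, 0.36 with the non-epithelial level subtracted, 0.39 without mitochondrial and top 20 genes and 0.56 with nuclei weighted equally. The ratio in non-epithelial nuclei was 0.69 without the nucleus with the most Gsdmc UMIs in each library, also chosen after seeing the data.

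The log2 ratio of enterocyte-like over non-epithelial nuclei moved in WT to 2.14 without integration, 2.12 at resolution 0.5 and 0.48 by the own marker score, and in HIF-1α KO to 1.85 with all barcodes, 1.24 at 1000 UMIs per nucleus, 1.199 with equal weight and -0.29 by the own marker score, a reversal. By that score 511 of the 1366 HIF-1α KO nuclei called non-epithelial lay in enterocyte-like clusters, and these had 787 CPM. The percent of Gsdmc UMIs in enterocyte-like nuclei became 64.5 in WT and 79.1 in HIF-1α KO with all barcodes, 59.6 and 73.3 at 1000 UMIs, 57.0 and 82.8 without integration, 61.4 and 72.1 at resolution 0.5, 65.7 and 78.3 at resolution 2, 65.4 and 78.7 with the Gsdmc genes as features, 41.4 and 48.3 by the own marker score and 77.9 and 82.2 with cluster 2 added. The percent of enterocyte-like nuclei with a UMI became 23.9 and 32.1 at 1000 UMIs. With a minimum of 1 UMI, 27.5% of genes were at least 1.5-fold lower in HIF-1α KO over all nuclei and 32.2% in enterocyte-like nuclei. The cause of these shifts was not tested. Windows of 50 bases found in another member made up 16.4% for Gsdmc, 48.5% for Gsdmc2, 46.9% for Gsdmc3 and 39.0% for Gsdmc4. Of the 10 genes most like the Gsdmc genes, 8 were shared with 1 CPM added, 9 with 50 CPM, 7 at resolution 2 and 9 without integration.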

Other observations

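Of the 10 genes whose level over clusters was most like that of the Gsdmc genes, 4 (Gk, Rps6ka3, Maoa and Slc6a14) lie on the X chromosome, as do 302 of the 10963 ranked genes with a known place, or 2.75%. The share was 5 of the top 20 and 7 of the top 50. This count was made after the genes were known, carries no test, and the genes share the same 40 points. In non-epithelial nuclei of HIF-1α KO, 1 nucleus held 23 of the 325 Gsdmc UMIs, while the most in WT was 8 of 212.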
